A study of Mus musculus with 3 samples.

Results

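The genes described here are 10 genes of the unfolded protein response, chosen by name from what they are known to do: Hspa5, Hyou1, Dnajb9, Sdf2l1, Calr, Pdia4, Creld2, Herpud1, Atf4 and Ddit3. Earlier results of these data were known when these genes were chosen. All 10 were found among the 27088 genes of the deposited table, and all 10 were among the 12433 genes that could be compared between libraries. Compared with the PBS library, the SJMHE1 library held more transcript of those of the 10 genes that encode chaperones and folding enzymes of the endoplasmic reticulum (ER), with the exception of Dnajb9, and less of the stress transcription factors Ddit3 and Atf4. The log2 ratio of FPKM (fragments per kilobase of transcript scaled for library size), SJMHE1 to PBS, ran from -1.02 for Ddit3 to 0.47 for Hyou1.

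The study examined SJMHE1, a peptide from a heat shock protein of the parasite Schistosoma japonicum, in female BALB/c mice with allergic rhinitis induced by ovalbumin (OVA). The mice are labelled as 13 weeks old and were 6 weeks old at the start. The PBS and SJMHE1 groups were both sensitized with 10 μg OVA and 2 mg aluminium hydroxide on days 0, 7 and 14 and challenged through the nose with 100 μg OVA from day 21 to 27 and from day 29 to 35. On days 0, 14 and 28 they received subcutaneous PBS without adjuvant or 10 μg SJMHE1 in incomplete Freund's adjuvant, so that the peptide and the adjuvant cannot be told apart. The mice were killed on day 36, and B cells were sorted from the spleen by flow cytometry for total RNA depleted of ribosomal RNA. A Control group of normal healthy mice completes the series, and its library was not used here.

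Samples of 3 mice were mixed for each library, and each group has 1 library. There is therefore no replicate error, and the intervals below are 95% Clopper-Pearson intervals of the counts that cover counting error only. The libraries held 48267168 (PBS) and 51280237 (SJMHE1) counts. A count of 3 was set as a floor to judge the counts by and entered no ratio. It equals 0.0622 (PBS) and 0.0585 (SJMHE1) CPM, the count scaled to an equal library sum. None of the 10 genes was near it, the lowest count being 728 for Sdf2l1 in the PBS library. In such a bulk measurement, fewer cells of a type and less RNA per cell cannot be told apart.

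Cells that secrete much protein, plasma cells above all, depend on the unfolded protein response. When unfolded proteins gather in the ER, sensors in its membrane signal to the nucleus: IRE1 (gene Ern1) splices the mRNA of the transcription factor XBP1, ATF6 is cut to release a transcription factor, and PERK (gene Eif2ak3) phosphorylates eIF2α. XBP1 and ATF6 induce chaperones and degradation factors through short promoter elements. Phosphorylated eIF2α lowers translation in general while favouring that of ATF4, which induces CHOP (gene Ddit3) and amino acid genes. ATF4 is controlled largely by translation and XBP1 by splicing, and gene counts show neither.

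Promoter elements known from the unfolded protein response are shown first, where the windows of these genes held them. Promoter windows of RefSeq (build GRCm38.p6, 250 bases before and 50 bases from the transcription start) were found for 9 of the 10 genes, the exception being Hyou1. The ER stress response element (ERSE), which is CCAAT and CCACG with 9 free bases between them, was searched on both strands and was found in the windows of Hspa5, Calr and Creld2. Of all 32851 mouse windows, 39 (0.119%) held it. ERSE-II, which is ATTGG and CCACG with 1 free base between them, was found in the window of Herpud1 and in 12 windows in all (0.0365%). In the lines below, 30 bases around each element are given 5′ to 3′ on the strand of the gene, with the element in capitals.
Hspa5 ERSE, chr2:34772020-34772049, plus strand: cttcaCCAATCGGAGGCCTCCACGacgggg
Creld2 ERSE, chr15:88819515-88819544, plus strand: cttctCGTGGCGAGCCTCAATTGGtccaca
Calr ERSE, chr8:84847069-84847098, minus strand: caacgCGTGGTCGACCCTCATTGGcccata
Herpud1 ERSE-II, chr8:94386368-94386397, plus strand: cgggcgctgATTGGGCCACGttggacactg
Herpud1 CARE, chr8:94386306-94386335, plus strand: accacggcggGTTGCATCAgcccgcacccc

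The Hspa5 element reads in the direction of the gene and lies 65 to 47 bases before the start, inside the span that the deposited table gives for Hspa5. The elements of Creld2 (126 to 108 bases before the start) and Calr (162 to 144 bases) read in the opposite direction and lie upstream of the deposited spans. The ERSE-II of Herpud1 lies 52 to 42 bases before the start. The last line shows the only member window with the C/EBP-ATF response element (CARE, searched as TGATGNAAN), through which ATF4 and CHOP act with C/EBP partners. It reads in the opposite direction 113 to 105 bases before the start, does not overlap the ERSE-II, and is common among windows (1299 of 32851, 3.95%). The XBP1 element UPRE (TGACGTGG) was in no member window and in 222 windows in all (0.676%). None of these letters were found in the windows of Ddit3, Atf4, Dnajb9, Sdf2l1 and Pdia4. A match is a description of letters and shows no binding.

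**Figure D1:**
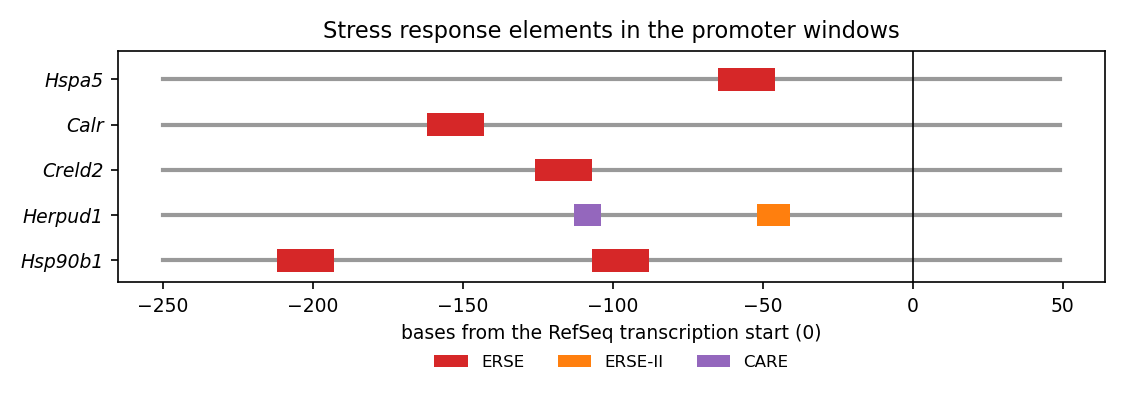
Position of the elements found in promoter windows of 4 members and of Hsp90b1. The x axis gives bases from the RefSeq transcription start, grey lines mark the windows, and coloured blocks mark the elements, each of which lies before the start.

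Among the members, the ER-resident HSP70 system was examined first. Hspa5 (ENSMUSG00000026864, chr2:34771970-34777547, plus strand, GRCm38) encodes BiP, the HSP70 of the ER that binds unfolded chains and holds the sensors inactive. Its FPKM was 233.55 in the PBS library versus 283.24 in the SJMHE1 library, from 54213 and 69599 counts. The log2 ratio was 0.28 (interval 0.26 to 0.29). Hspa5 was the most abundant of the 10 genes in both libraries, and it made up 29.8% (PBS) and 33.7% (SJMHE1) of their summed FPKM.

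Hyou1 (ENSMUSG00000032115, chr9:44379490-44392369, plus strand) encodes a large HSP70-related protein that exchanges the nucleotide of BiP. Its FPKM was 16.17 in the PBS library versus 22.4 in the SJMHE1 library, which is the highest ratio of the 10 genes (0.47, interval 0.42 to 0.52). Sdf2l1 (ENSMUSG00000022769, chr16:17130138-17132383, minus strand) encodes a partner of ER-resident J proteins. It was the least abundant gene in the PBS library, with 11.96 FPKM against 14.36 in the SJMHE1 library, and its log2 ratio had the widest interval of the 10 genes (0.26, interval 0.12 to 0.41).

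Dnajb9 (ENSMUSG00000014905, chr12:44205559-44210326, minus strand) encodes ERdj4, the J protein that brings BiP to IRE1 and to proteins for degradation. It was the one gene of the HSP70 system with a lower level in the SJMHE1 library, at 60.3 FPKM against 71.59 in the PBS library (-0.25, interval -0.29 to -0.21). Set against Hspa5, the Dnajb9 level was 30.7% in the PBS library versus 21.3% in the SJMHE1 library. Of the 50-base stretches in Dnajb9 transcripts, 5.50% also occur in the gene Gm6568, so that some reads may have been split between them.

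The lectin chaperone and the disulfide enzymes among the members were all higher in the SJMHE1 library. Calr (ENSMUSG00000003814, chr8:84841850-84846934, minus strand) encodes calreticulin, which binds sugar chains and calcium. It had 148.06 FPKM in the PBS library versus 194.24 in the SJMHE1 library (0.39, interval 0.37 to 0.42). Calr ranked below Atf4 in the PBS library, while it ranked above Atf4 in the SJMHE1 library.

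Pdia4 (ENSMUSG00000025823, chr6:47796141-47813430, minus strand) encodes a protein disulfide isomerase, which forms and rearranges disulfide bonds. Its FPKM was 49.79 in the PBS library versus 66.29 in the SJMHE1 library (0.41, interval 0.37 to 0.46). Creld2 (ENSMUSG00000023272, chr15:88819646-88826683, plus strand) encodes a stress-induced ER protein with isomerase activity, and it had 19.18 FPKM in the PBS library versus 25.04 in the SJMHE1 library (0.38, interval 0.29 to 0.48). The intervals of Calr, Pdia4 and Creld2 overlapped each other.

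Herpud1 (ENSMUSG00000031770, chr8:94386438-94395377, plus strand) encodes an ER membrane protein of the degradation machinery. It had 35.55 FPKM in the PBS library versus 37.41 in the SJMHE1 library, the smallest difference of the 10 genes (0.07, interval 0.02 to 0.13). Herpud1 is also the only member whose window held elements of different kinds, ERSE-II and CARE.

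**Figure D2:**
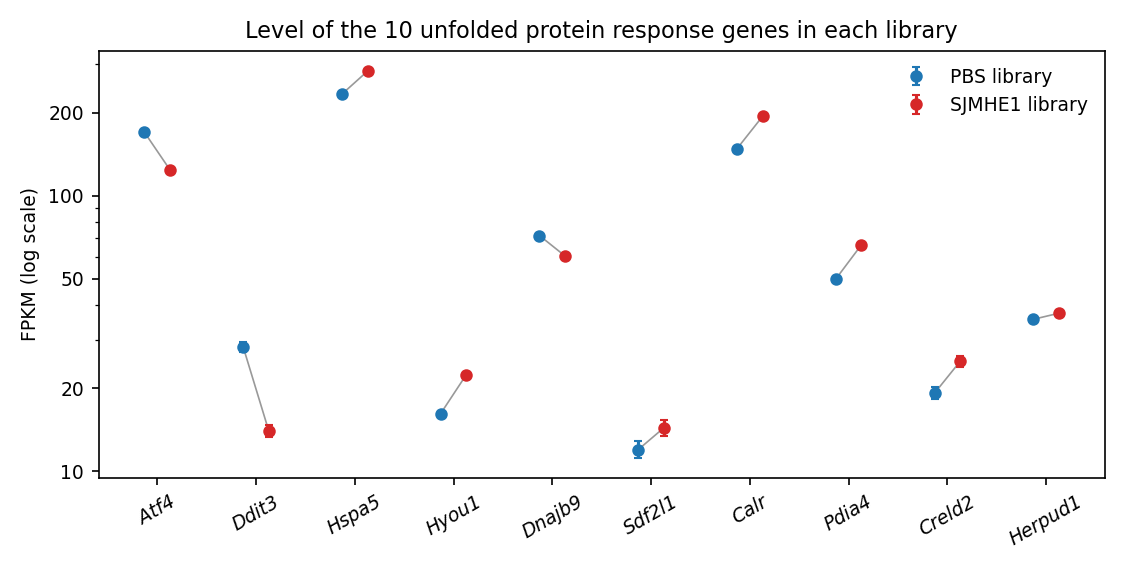
FPKM (log scale) of the 10 genes in the PBS and SJMHE1 libraries, 1 library per group, with 95% counting intervals that are mostly smaller than the points. Atf4, Ddit3 and Dnajb9 are lower in the SJMHE1 library, and the other 7 genes are higher.

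The transcription factors of the PERK branch showed the opposite direction. Atf4 (ENSMUSG00000042406, chr15:80255184-80257541, plus strand) encodes the activator that the eIF2α kinases favour. Its FPKM was 169.86 in the PBS library versus 123.88 in the SJMHE1 library, from 21985 and 16974 counts (-0.46, interval -0.48 to -0.43). The Atf4 level was 1.15 times that of Calr in the PBS library, compared with 0.638 times in the SJMHE1 library.

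Ddit3 (ENSMUSG00000025408, chr10:127290774-127296288, plus strand) encodes CHOP, a transcription factor that promotes cell death under lasting stress. Its FPKM was 28.22 in the PBS library versus 13.96 in the SJMHE1 library, from 2654 and 1392 counts (-1.02, interval -1.11 to -0.92). Relative to Hspa5, the Ddit3 level was 12.1% in the PBS library versus 4.93% in the SJMHE1 library. By level, Ddit3 stood at position 7 of the 10 genes in the PBS library, whereas it stood at position 10 in the SJMHE1 library.

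Of the 50-base stretches in Ddit3 transcripts, 4.38% also occur in other genes, namely a second annotated Ddit3 locus that is not used here (3.27%) and Mars (1.11%). Mars lies on the opposite strand and shares 68 exon bases with Ddit3. The Mars level was 15.17 FPKM in the PBS library versus 16.09 in the SJMHE1 library, so it did not move with Ddit3.

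By level, the order in the PBS library was Hspa5, Atf4, Calr, Dnajb9, Pdia4, Herpud1, Ddit3, Creld2, Hyou1 and Sdf2l1, and the counting intervals of no neighbours overlapped. In the SJMHE1 library it was Hspa5, Calr, Atf4, Pdia4, Dnajb9, Herpud1, Creld2, Hyou1, Sdf2l1 and Ddit3, and only the intervals of Sdf2l1 and Ddit3 overlapped. The summed FPKM of the 10 genes was 783.93 in the PBS library versus 841.12 in the SJMHE1 library. Without replicates, a gap between neighbours beyond counting error is not shown to exceed the spread between mice.

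Next, the 10 genes were set against all genes compared, with a log2 ratio past 1 in either direction as the threshold. Of the 12433 genes, 444 (3.57%) passed it lower and 302 (2.43%) higher in the SJMHE1 library. Of the 10 genes, 1 passed it in the lower direction (Ddit3) and 0 in the higher direction. At a threshold of 0.5, which 17.1% of all genes passed, Ddit3 was still the only one, although Hyou1 passed it in the higher direction with FPKM rescaled to an equal sum (0.55) and with size factors (0.51). Ddit3 sits at the threshold, since its counting interval includes -1. With counts scaled by TMM factors or by median-of-ratios size factors, with FPKM rescaled to an equal sum, or with a pseudocount of 1, no member passed it.

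The median log2 ratio of the 10 genes was 0.27, beside -0.01 over all genes compared. Of the ratios of all genes compared, 47.7% were above 0 and 51.9% below. The counting interval left out 0 for all 10 genes, 7 above and 3 below, and it left out 0 for 65.6% of all genes, so that counting error is small for most genes and the spread between mice remains unknown. Among the 4389 genes with a mean FPKM of at least 10, the middle 90% of log2 ratios ran from -0.42 to 0.37. Calr, Pdia4, Creld2 and Hyou1 lay above this range, Atf4 and Ddit3 lay below it, and Hspa5, Sdf2l1, Herpud1 and Dnajb9 lay inside it. Hyou1 was at percentile 97.1 of these genes and Ddit3 at percentile 0.934.

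**Figure D3:**
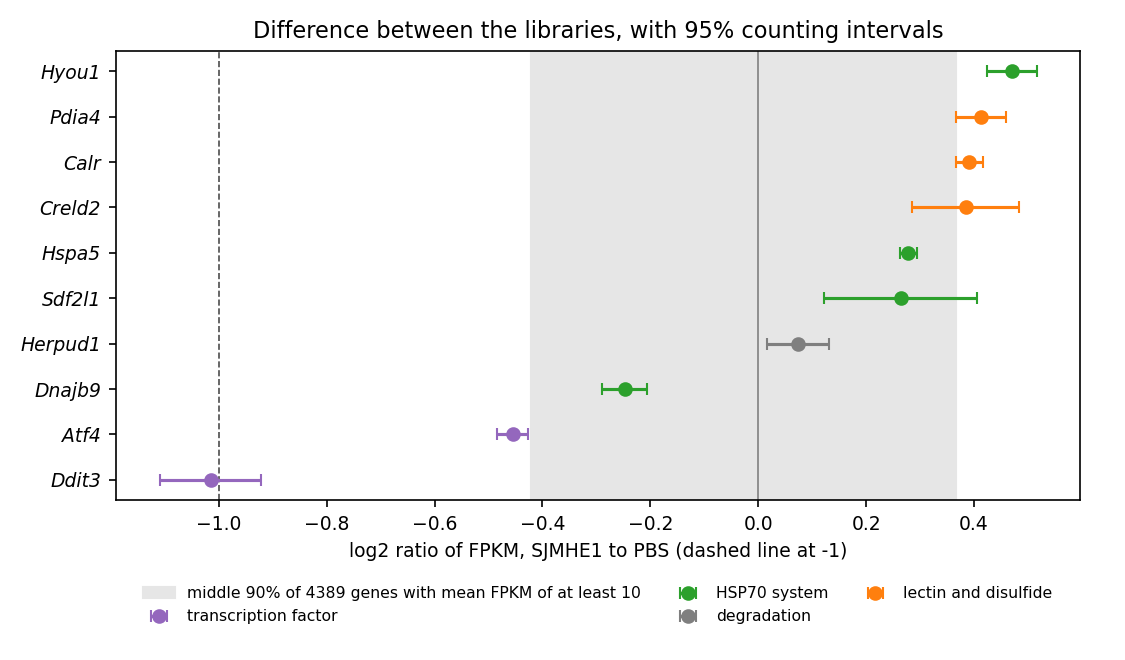
Log2 ratio of FPKM, SJMHE1 to PBS, for the 10 genes, with 95% counting intervals (bars), coloured by role. The grey band holds the middle 90% of the 4389 genes with a mean FPKM of at least 10 (-0.42 to 0.37), and Ddit3 at -1.02 lies farthest outside it.

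The sensors and signal transducers upstream of the members differed in both directions, with log2 ratios from -0.38 to 0.41. Among 10 sensors and signal transducers, 0 passed the threshold in either direction, 6 ratios were above 0 and 4 below, and the median was 0.05. Ern1, the IRE1 sensor, had 2.05 FPKM in the PBS library versus 1.58 in the SJMHE1 library (-0.38), and Eif2ak3, the PERK sensor, had 23.42 and 19.54 FPKM (-0.26). The lower Eif2ak3 level stood beside lower Atf4 and Ddit3 levels, while the lower Ern1 level stood beside a higher Xbp1 level. Sensor activity was not measured, and a link between these levels was not tested.

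Atf6 had 15.64 FPKM in the PBS library versus 16.26 in the SJMHE1 library (0.06), and its relative Atf6b, the most abundant of the list, had 33.25 and 34.46 FPKM (0.05). Xbp1, the target of IRE1 and an inducer of the ERSE and UPRE genes, had 25.54 and 33.83 FPKM. Its log2 ratio of 0.41 was the highest of the list and lay among those of Calr, Pdia4 and Creld2. The spliced form of Xbp1 was not measured in these counts.

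For eIF2α, the other kinases and the phosphatase subunits were examined, and all 5 had ratios slightly below 0 (median -0.05, none past the threshold). This median was 0.03 with FPKM rescaled to an equal sum. Ppp1r15a encodes GADD34, the stress-induced subunit that restores translation and a known target of ATF4 and CHOP. It was the most abundant of the list with 272.51 FPKM in the PBS library versus 267.25 in the SJMHE1 library (-0.03), and so it did not share the lower level of Ddit3. Eif2ak2, the kinase PKR, had the lowest ratio (2.77 and 2.46 FPKM, -0.17), and Ppp1r15b, the constitutive subunit, had the highest (27.77 and 27.37 FPKM, -0.02).

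Further genes induced by ATF4 and CHOP were mostly lower in the SJMHE1 library. Of 25 listed genes, 18 could be compared. Beside 51.9% of ratios below 0 over all genes compared, 13 of the 18 were below 0 and 5 above, with a median of -0.27. In the lower direction 1 passed the threshold, namely Atf3, a stress transcription factor, with 77.2 FPKM in the PBS library versus 32.5 in the SJMHE1 library (-1.25, interval -1.30 to -1.19). Atf3 was also the most abundant gene of the list. Asns, which makes asparagine, was the highest in ratio (2.23 and 3.01 FPKM, 0.43).

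The ATF4 and CHOP targets below the expression filter were at low levels and entered none of the counts above. Trib3, a pseudokinase, had 0.86 FPKM in the PBS library versus 0.34 in the SJMHE1 library, from 101 and 43 counts (-1.34, interval -1.89 to -0.81). Chac1, which degrades glutathione, had 0.46 and 0.26 FPKM from 42 and 25 counts (-0.82). Tnfrsf10b and Slc7a11 were also lower (-0.50 and -0.26), and Nupr1 was higher (0.32) from 6 and 9 counts. Stc2 and Vldlr were listed at 0 in the PBS library.

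The other ER chaperones and folding enzymes were divided. Of 24 listed, 22 were compared. Beside 47.7% of ratios above 0 over all genes compared, 16 of the 22 were above 0 and 6 below. None of the list passed the threshold, and its median was 0.08. The most abundant was Hsp90b1, which encodes GRP94, the HSP90 of the ER and a partner of BiP. It had 133.42 FPKM in the PBS library versus 198.06 in the SJMHE1 library (0.57, interval 0.55 to 0.59), a higher ratio than that of any member, and its window held 2 ERSE, at 212 to 194 and 107 to 89 bases before the start.

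Canx, the membrane-bound lectin chaperone related to calreticulin, had 44.16 and 64.03 FPKM (0.54), and the disulfide isomerases Pdia3 and Pdia6 had log2 ratios of 0.35 and 0.34. Such ratios were not shared by all disulfide enzymes of the list, as P4hb was at 0.08 and Txndc5 was lower at -0.28. Creld1, the paralogue of Creld2, had the highest ratio, from a low level (1.77 and 3.01 FPKM, 0.77). At the other end, Sil1, an exchange factor for BiP like Hyou1, had 4.53 and 3.43 FPKM (-0.40). The higher ratios thus did not extend to every BiP partner, as Dnajb9 and Sil1 were both lower.

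The rest of the secretory pathway differed little. Over all genes compared, 51.9% of ratios were below 0. Of 18 genes of ER-associated degradation, the machinery to which Herpud1 and Dnajb9 belong, 12 had ratios below 0 and 6 above (median -0.06, none past the threshold). Vcp, the ATPase that extracts proteins from the membrane, was the most abundant at 50.08 FPKM in the PBS library versus 46.07 in the SJMHE1 library (-0.12). The range ran from Selenok (33.66 and 26.91 FPKM, -0.32) to Derl2 (4.46 and 5.92 FPKM, 0.41).

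Of 16 genes of translocation and signal peptide cleavage, 9 were below 0 and 7 above (median -0.02, none past the threshold), from Spcs1 (-0.20) to Sec61g (0.21), and the most abundant by mean FPKM was Srpr, a subunit of the signal recognition particle receptor (33.85 and 32.93 FPKM, -0.04). With FPKM rescaled to an equal sum, the medians of the degradation and translocation lists were 0.02 and 0.06.

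The genes with an ERSE were then examined as a group, whatever their function. Of 37 gene symbols with the element, 14 could be compared, and 12 of these had a ratio above 0, with a median of 0.28. Over all genes compared, 47.7% of ratios were above 0. Without Hspa5, Calr and Creld2, 9 of 11 were above 0 and the median was 0.22. Among these 11, Hsp90b1, Canx, Pdia6, Dnajc3, Syvn1 and Derl3 also belong to the chaperone and degradation lists above, so the groups overlap. In the higher direction 1 gene passed the threshold, Hnrnpa3 (6.54 and 21.43 FPKM, 1.71), which encodes an RNA-binding protein and is named here after its value was seen.

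For CARE, the element of ATF4 and CHOP, no such shift was present. CARE was a far more common match than ERSE (3.95% and 0.119% of windows), so the 2 groups are not alike. A match this common cannot show whether targets of ATF4 and CHOP shifted. Of 216 genes with CARE, 99 ratios were above 0 and 116 below, with a median of -0.03, 2 past the threshold higher and 6 lower. UPRE gave a median of -0.01 over 85 genes, with 0 higher and 3 lower past the threshold. For all 8271 genes with a window the median was -0.01, with 85 past the threshold higher and 152 lower. These are descriptions of 2 libraries, and the lists were not tested against other genes.

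**Figure D4:**
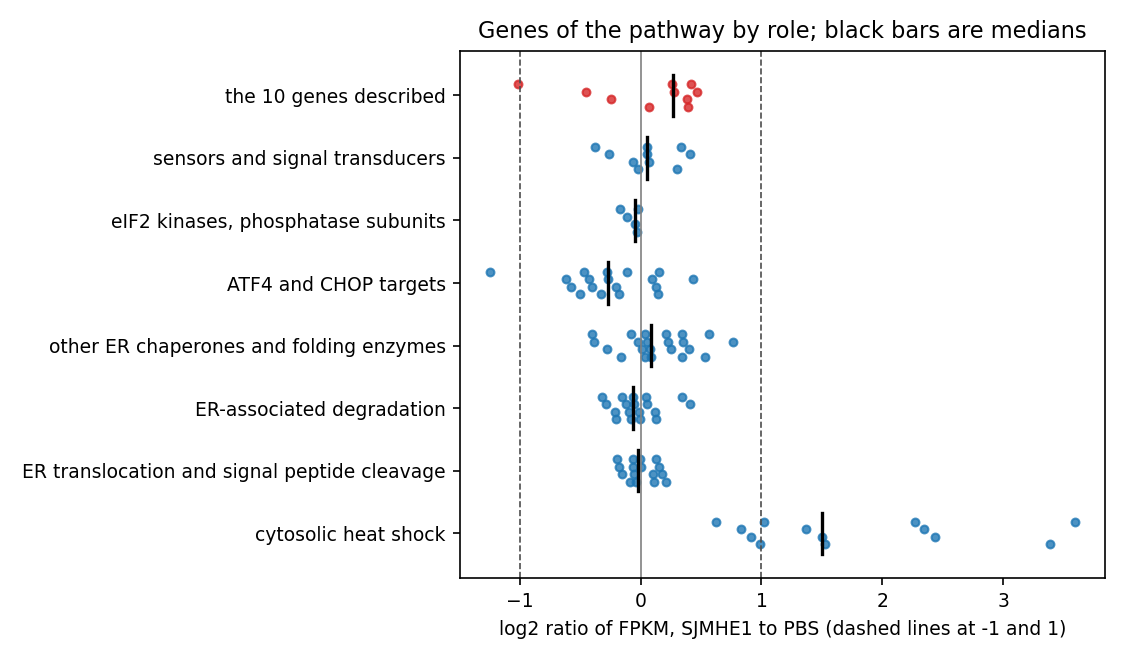
Log2 ratio of FPKM, SJMHE1 to PBS, of each gene compared (points) in the 10 genes described (red) and in other lists (blue), with the median of each list as a black bar and dashed lines at -1 and 1. The list labelled cytosolic heat shock, which also holds the mitochondrial chaperonins Hspd1 and Hspe1, has a median of 1.50. The median is 0.27 for the 10 genes and -0.27 for the ATF4 and CHOP targets.

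Several lists outside the pathway moved between the same libraries, and their part in the results above was not tested. All 13 listed heat shock genes were higher in the SJMHE1 library (median 1.50, 9 past the threshold), from Hsp90ab1 (541.97 and 837.23 FPKM, 0.63) to Hspa1b (175.67 and 2127.31 FPKM, 3.60). They are genes of the cytosol except for Hspd1 and Hspe1, which encode mitochondrial chaperonins. Hyou1, the member with the highest ratio (0.47), lay below the lowest of this list, and Hspa5 and Hyou1 belong to the same protein family as Hspa1b.

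Of 10 immediate early genes, which respond to handling of cells among other stimuli, 7 were higher and 3 lower (median 0.21, none past the threshold). Fos had 731.15 and 1050.32 FPKM (0.52), Egr1 305.06 and 452.37 FPKM (0.57), and Nr4a1 184.63 and 117.85 FPKM (-0.65).

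Plasma cells are the B lineage cells richest in these chaperones, so their markers are given here. Of 8 markers, 6 had lower ratios and 2 higher (median -0.29), and their summed FPKM was 614.58 in the PBS library versus 506.37 in the SJMHE1 library. Jchain, which links secreted antibody, had 387.75 and 313.01 FPKM (-0.31). Tnfrsf17, the survival receptor BCMA, had 1.93 and 0.87 FPKM from 87 and 42 counts (-1.15) and was the only one past the threshold. The 2 higher were Tnfrsf13b (65.55 and 66.5 FPKM, 0.02) and Ell2 (6.58 and 6.93 FPKM, 0.07). The counting interval lay below 0 for 5 of the 8 markers and above 0 for 1. Of the members, Dnajb9, Atf4 and Ddit3 were lower as most of these markers were, and the other 7 were higher.

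The B cell label was checked against its markers, which were present in both libraries. Cd74, the invariant chain of antigen presentation and the most abundant of them, had 4642.73 FPKM in the PBS library versus 4297.17 in the SJMHE1 library (-0.11, the lowest ratio). Cr2, a complement receptor, had 136.27 and 218.29 FPKM (0.68, the highest ratio). Markers of other cells were also present, and none was at 0. For 10 T cell markers the sum was 51.88 and 31.84 FPKM, with 9 past the threshold lower (median -1.85, or -0.96 with a pseudocount of 1). Most of that sum was Lck (27.92 and 25.19 FPKM, -0.15), the only T cell marker not past the threshold and the only one left with an FPKM of at least 5. For 6 NK cell markers the sum was 15.44 and 6.75, with 4 of 5 compared past it lower, and for 6 dendritic cell markers 7.83 and 3.78, with 2 of 3 lower.

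For 9 macrophage markers the sum was 32.5 in the PBS library versus 26.67 in the SJMHE1 library. Of 8 compared, 4 ratios were above 0 and 4 below (median 0.07), with 2 past the threshold higher and 0 lower. C1qc had the highest ratio (0.95 and 2.19 FPKM, 1.20), and Cd68, the most abundant, had the lowest (12.61 and 6.77 FPKM, -0.90). The median was -0.38 without the expression filter and -0.44 where each library had to reach an FPKM of 1. For 6 neutrophil markers the summed FPKM was 383.6 and 474.14 and for 7 erythroid markers 149.38 and 196.52, with none past the threshold in either list. Atf4 and Ddit3 were thus lower in the library with a lower summed FPKM of T, NK, dendritic, plasma cell and macrophage markers. That library had higher sums for neutrophil and erythroid markers. The share of the difference in Atf4 and Ddit3 that other cells carry was not tested.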

How the data were processed

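RNA of B cells sorted from the spleen was sequenced as 3 libraries, each from 3 mixed samples. The authors deposited whole-number counts per gene, not normalized, and FPKM, which scales by gene length and library size and is rounded to 2 decimals. The submitters' processing notes name bcl2fastq 2.0, HISAT2, StringTie, DESeq2, limma and build mm10, without versions of the others or their order, and the strand setting is not given in the sources used here. Of the value columns, 4 match the PBS or SJMHE1 library, and 2 whose name matches no sample were not used, so comparisons with Control were not made. The table holds no fold changes of the authors.

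The measure was the log2 ratio of FPKM, SJMHE1 to PBS, without pseudocount, for genes that reached an FPKM of 1 in either library and were above 0 in each. With 1 library per group, the edgeR quasi-likelihood test could not be fitted and no test was made. The threshold was a log2 ratio past 1, and 95% Clopper-Pearson intervals of the counts cover counting error only. The calculation of the intervals was checked on simulated counts that held counting error alone. Such a check cannot show how the intervals behave with spread between mice. FPKM values depend on length models and on the few genes with most reads, which the scaling alternatives examine. Python 3.11.15 (numpy 2.4.6, pandas 2.3.3, scipy 1.17.1) and, for TMM and size factors, edgeR 4.0.16 and DESeq2 1.42.0 in R 4.3.3 were used.

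The members and lists were chosen with earlier results of these data known. Named were all members, the main sensors and partners (Ern1, Eif2ak3, Atf6, Xbp1, Ppp1r15a, Hsp90b1), and in each pathway list the most abundant gene, those with the highest and lowest ratio and those past the threshold. Other genes are named as examples, chosen after their values were seen. For the cell type and heat shock lists the genes past the threshold are given as counts. RefSeq promoter windows were matched by symbol, and gene positions match GENCODE M21 on GRCm38 for all 10 members. Shared sequence was counted over 50-base stretches of transcripts. Protein sequences were not used. An item of the B cell check is not reported here.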

Additional observations from a re-analysis of the deposited data

How the results depend on the processing

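All 10 members kept their direction under the 11 alternatives that give their ratio. Ddit3 ranged from -1.02 to -0.93 and Hyou1 from 0.45 to 0.55. The number of members past the threshold was 0 in place of 1 with a pseudocount of 1, FPKM rescaled to an equal sum, TMM factors and size factors. The median of the members was 0.35 with FPKM rescaled to an equal sum. That rescaling moved the median of all genes by 0.0830 to 0.07, and it turned the median of the eIF2 kinase and phosphatase list to 0.034. The number of all genes past the threshold, 302 higher and 444 lower, was 100 and 146 with a pseudocount of 1, 1367 and 2018 without the expression filter, 101 and 151 where each library had to reach an FPKM of 1, 52 and 93 where either had to reach 5, and 89 and 171 for protein-coding genes alone. The dendritic cell list had no gene that reached 5. No paired analysis was possible because no group holds more than 1 library. Leaving out a library would leave no comparison. Depth does not limit the members, whose counts are 728 or more, and the missing replicates do.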

Other observations

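The table's own KEGG annotation, protein processing in endoplasmic reticulum, holds 156 genes, of which 145 were compared and 7 are members described above. Their median log2 ratio was 0.03. In the higher direction 7 passed the threshold, and all of these are HSP70 or HSP40 family genes of the cytosol (Hspa8, Dnaja1, Hspa1l, Hsph1, Dnajb1, Hspa1a and Hspa1b), named after their values were seen. In the lower direction 1 passed it, Ddit3. Without the members, the median over the other 138 genes was 0.02, with 7 higher and 0 lower.

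The 8 genes with ERSE-II among those compared had a median log2 ratio of -0.06, with 2 above 0 and 6 below, which is not the direction of most genes with ERSE. The 2 above 0 were Herpud1 (0.07) and Dnajb11 (24.97 FPKM with PBS and 31.62 with SJMHE1, 0.34), the J protein ERdj3 and partner of BiP. The lowest was Krtcap2, a subunit of the enzyme that attaches sugar chains in the ER (15.11 and 12.01 FPKM, -0.33).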
